A study of Mus musculus with 6 samples.

Results

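Endothelial and leukocyte marker genes were examined in ovarian surface epithelium cells that had been sorted by aldehyde dehydrogenase (ALDH) activity, to see how much vascular and immune RNA each sorted fraction held. The set was 36 genes, 16 of endothelial cells and 20 of leukocytes, among 18193 genes with a probe set of their own on the array. Each gene was represented by the probe set annotated to it alone that had the highest mean over the 6 arrays. Each of 3 independent pools of 10 mice gave 1 ALDH-positive and 1 ALDH-negative sample, and the 6 samples were hybridised to Affymetrix Mouse Genome 430 2.0 arrays. All cells came from virgin FVB/N females of 8 weeks. Individual ovaries were digested and then removed, and the released cells were kept for 24 h in stem cell medium on gelatin before staining with ALDEFLUOR, a fluorescent ALDH substrate. Sorting used unstained cells and cells given the ALDH inhibitor diethylaminobenzaldehyde as controls, and the cDNA was amplified before labelling. Both groups therefore share strain, age, digestion and culture, and each sample is a pool of animals sorted on ALDH activity alone, with no surface marker of blood or vessel cells among the sorting steps that the labels describe.

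Endothelial cells line blood vessels. They carry receptors for vascular endothelial growth factor (VEGF) and for angiopoietins, and they are joined by their own cadherin, claudin and adhesion molecules. Leukocytes carry the phosphatase CD45. Among them macrophages, the most common immune cells of the ovary, carry the receptor for colony stimulating factor 1 and make lysozyme, cathepsins and the complement protein C1q, while antigen-presenting cells carry class II histocompatibility molecules with the invariant chain CD74. The ovary is rich in vessels and macrophages, and the surface epithelium lies directly on that tissue.

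An expression array gives a reading even for a gene that is silent. The background of each array was therefore taken as the 95th percentile of the 83 probe sets of olfactory, vomeronasal, taste and trace amine receptor genes, which ovary and blood are not known to transcribe. This level was 2.58, 3.04, 3.02, 2.92 and 3.39 (quantile-normalized log2 signal) on ALDH-negative pools 1 and 3 and ALDH-positive pools 1, 2 and 3. On the ALDH-negative array of pool 2 it was 5.78. That array stood apart: it correlated with the others at 0.558 to 0.679 across probe sets, while the remaining 5 correlated at 0.850 to 0.974 with each other, and only 25.3% of all genes lay above background on it, against 58.8% to 67.3% on the rest. Its readings of dim genes were raised (median of the leukocyte genes 3.17, against 1.97 to 2.84 on the others) without passing its background. Medians, test calls and some gene differences are given with and without it or its pool. The arrays of pool 3 read low in the control probe set for the 5' end of Gapdh (deposited log2 6.63 in the ALDH-negative and 5.20 in the ALDH-positive sample), against 10.1 to 10.3 on the arrays of pool 1 and ALDH-positive pool 2. ALDH-negative pool 2 read 7.92 in it. In the control probe set for the 3' end of the beta-actin gene that array read 5.03, against 9.56 to 11.04 on the others. As a check of the labelled tissue, 15 surface epithelium and mesothelium markers were read. All 15 lay above background on the ALDH-positive arrays of pools 1 and 2 and 14 on that of pool 3. On the ALDH-negative arrays of pools 1, 2 and 3 there were 11, 4 and 10. These ALDH-negative counts were near the shares of all genes there, 67.3%, 25.3% and 61.8%. The median difference of the 15 genes was 3.27 log2, higher in ALDH-positive cells, with 0 called in limma.

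Most endothelial and leukocyte genes read near the background of these arrays. Of the 16 endothelial genes, 11, 1 and 5 lay above background on the ALDH-negative arrays of pools 1, 2 and 3, and 6, 7 and 6 on the ALDH-positive ones. Of the 20 leukocyte genes, 6, 1 and 10 did so in the ALDH-negative fraction and 7, 4 and 6 in the ALDH-positive one. The share of all genes above background was 67.3%, 25.3% and 61.8% on the ALDH-negative and 62.4%, 63.1% and 58.8% on the ALDH-positive arrays. The endothelial share on ALDH-negative pool 1, 68.8%, was therefore near that of all genes, and on every other array the share of either set was below it. On the 5 arrays other than ALDH-negative pool 2, 4 endothelial genes (Kdr, Egfl7, Eng and Ramp2) and 2 leukocyte genes (Fcer1g and Cd74) were above background throughout. For all genes that share was 52.1%. With background set at the 99th percentile none of the 36 genes was above it on all 5, since that level was 5.28 on ALDH-positive pool 3, where Csf1r alone exceeded it. On those 5 arrays 4 endothelial genes (Tek, Tie1, Cldn5 and Plvap) and 7 leukocyte genes (Adgre1, Itgam, C1qa, C1qc, Ctss, H2-Ab1 and Coro1a) were above background on none, against 27.6% of all genes. In RNA from mixed cells, fewer cells of a type and less RNA per cell cannot be told apart.

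**Figure D1:**
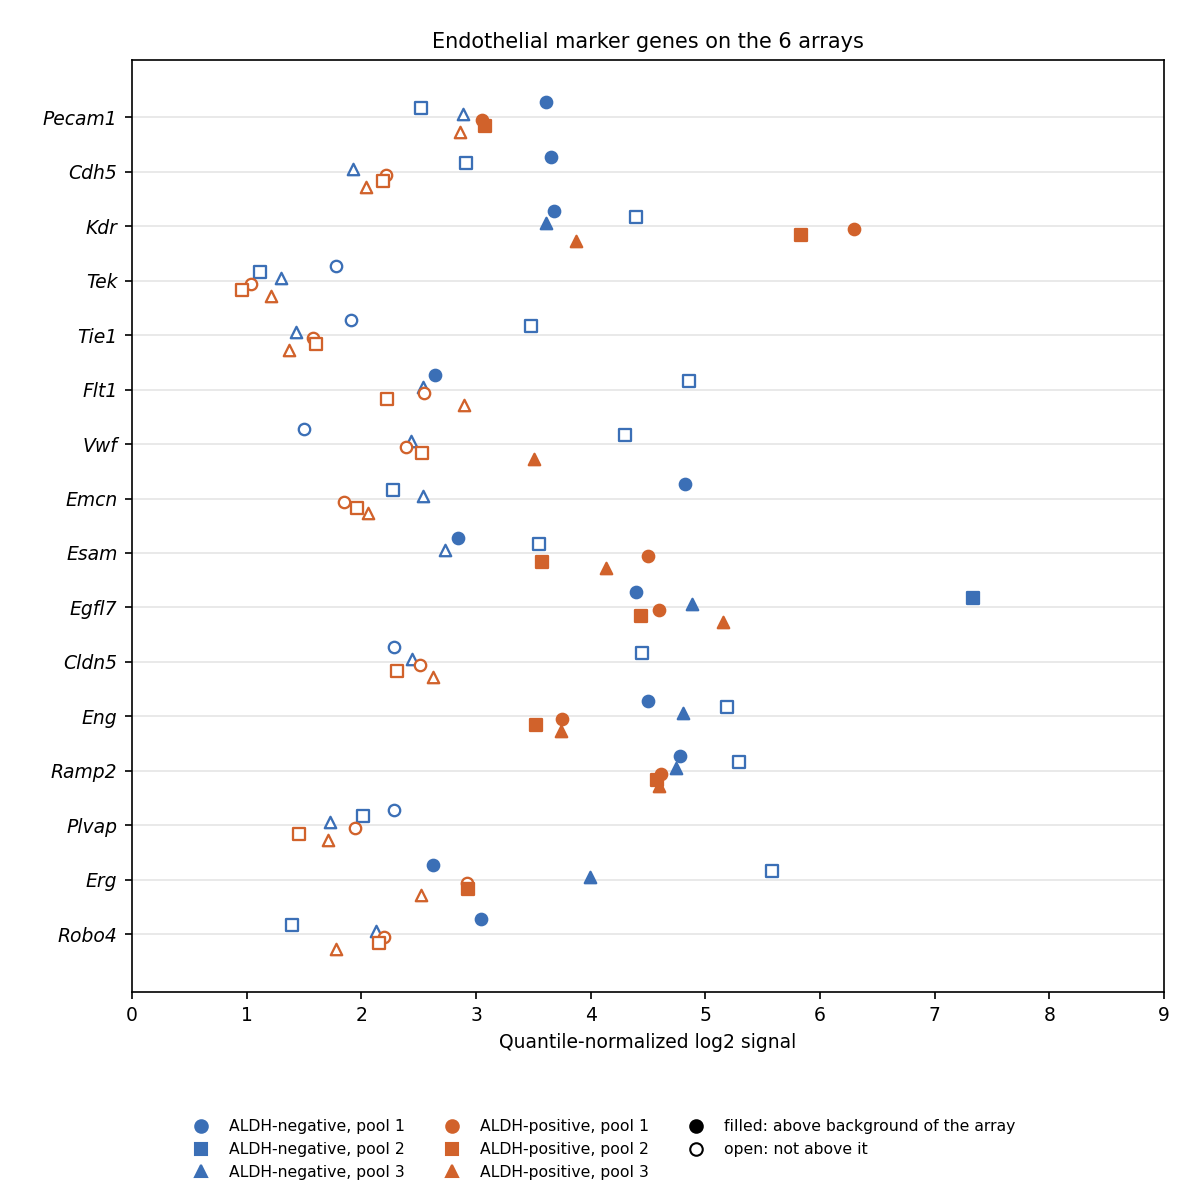
Quantile-normalized log2 signal (horizontal axis) of the 16 endothelial marker genes on each of the 6 arrays; colour gives the ALDH fraction, shape the pool, and filled symbols lie above the background of their own array. Kdr at 6.30 and 5.83 in ALDH-positive pools 1 and 2 and Emcn at 4.82 in ALDH-negative pool 1 lie apart from the other readings of these genes, and Egfl7 is above background on all 6 arrays.

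The VEGF receptors did not share 1 pattern. Kdr, the main signalling receptor for VEGF, read 3.68, 4.40 and 3.61 on the ALDH-negative arrays of pools 1, 2 and 3 and 6.30, 5.83 and 3.87 on the ALDH-positive ones. ALDH-positive cells of pools 1 and 2 read highest, while those of pool 3 lay within the ALDH-negative range. The ALDH-positive mean was 2.71 times the ALDH-negative one (1.44 on the log2 scale, limma SE 0.72, n = 3 pools). Kdr was above background on 2 of 3 ALDH-negative and 3 of 3 ALDH-positive arrays. It did not pass the test across all probe sets (limma adjusted p = 0.895). Flt1, the high-affinity VEGF receptor that acts largely as a decoy, read 2.64, 4.86 and 2.54 in the ALDH-negative fraction and 2.54, 2.23 and 2.89 in the ALDH-positive one. It was above background on ALDH-negative pool 1 alone, by 0.056. The angiopoietin receptor Tek read between 0.96 and 1.78 and its relative Tie1 between 1.37 and 3.48, below background on every array.

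Several endothelial surface genes read highest in ALDH-negative cells of pool 1 once the ALDH-negative array of pool 2 was set aside. Cdh5, the cadherin of endothelial junctions, read 3.65, 2.91 and 1.93 in the ALDH-negative fraction and 2.21, 2.19 and 2.04 in the ALDH-positive one, and it was above background on the first of these arrays alone. Its other probe set gave 3.35, 3.10 and 2.30 against 1.86, 2.06 and 1.62, again above background on ALDH-negative pool 1 only. Emcn, a sialomucin of capillary and venous endothelium, read 4.82, 2.27 and 2.53 in the ALDH-negative fraction and 1.84, 1.96 and 2.06 in the ALDH-positive one. The groups did not overlap, but 1 array carried most of the difference (-2.97 in pool 1, -0.31 and -0.48 in pools 2 and 3). Robo4, a guidance receptor of vessels, read 3.05 on ALDH-negative pool 1 and 1.39 to 2.19 elsewhere. Pecam1, an adhesion molecule of endothelium that platelets and leukocytes also carry, read 3.61, 2.52 and 2.89 in the ALDH-negative fraction and 3.05, 3.08 and 2.86 in the ALDH-positive one, with pool differences of -0.56, 0.56 and -0.03. Of the 16 endothelial genes, 8 had their highest reading of the 5 arrays on ALDH-negative pool 1, against 17.8% of all genes, and 4 (Cdh5, Flt1, Emcn and Robo4) were above background there alone, against 2.64% of all genes. Among 26 further endothelial genes on the array, 5 were highest there. Cldn5, the claudin of tight vessels, read 2.28 to 2.63 outside ALDH-negative pool 2, and Plvap, the diaphragm protein of fenestrated capillaries, 1.46 to 2.28 over all 6 arrays.

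Esam was the endothelial gene whose ALDH-positive readings all lay above the ALDH-negative ones. This junctional adhesion molecule read 2.85, 3.55 and 2.73 in the ALDH-negative fraction and 4.50, 3.57 and 4.13 in the ALDH-positive one. The fractions came within 0.03 of each other in pool 2 and differed by 1.65 and 1.41 in pools 1 and 3 (mean 1.03, SE 0.68, limma adjusted p = 0.895; mean 1.53 without pool 2). Eng, a coreceptor for transforming growth factor beta found on endothelium and on other mesenchymal cells, showed the opposite order. It read 4.50, 5.19 and 4.80 in the ALDH-negative fraction and 3.75, 3.53 and 3.75 in the ALDH-positive one. Each pool gave a lower ALDH-positive reading, and the mean difference was -1.16 (SE 0.65, limma adjusted p = 0.895) and -0.90 without pool 2. The other probe set of Eng gave -0.36, -3.36 and 0.03 in pools 1, 2 and 3, so the direction in pool 3 rested on the choice of probe set. Ramp2, the partner of the adrenomedullin receptor, read 4.78, 5.29 and 4.74 against 4.61, 4.58 and 4.60. These groups did not overlap either, with a mean difference of -0.34 (SE 0.64) that was -0.16 without pool 2.

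Egfl7, a secreted factor of endothelium, was above background on all 6 arrays, at 4.39, 7.33 and 4.88 in the ALDH-negative fraction and 4.59, 4.44 and 5.16 in the ALDH-positive one. The fractions of pools 1 and 3 differed by 0.20 and 0.28. Of its other probe sets, 1 was also above background on all 6 arrays, another on 4 and another on 2. The one above it on 4 differed by 0.11 and 1.73 in pools 1 and 3. Erg, an ETS family transcription factor of endothelium, read 2.63, 5.58 and 4.00 in the ALDH-negative fraction and 2.92, 2.93 and 2.52 in the ALDH-positive one, while its other probe set stayed between 2.18 and 2.71 on all arrays. Vwf, the clotting factor stored by endothelium and platelets, read 1.50, 4.30 and 2.43 against 2.39, 2.53 and 3.50, above background on ALDH-positive pool 3 alone.

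Promoter sequences are given for Kdr and Eng, which had the largest mean difference in each direction among the 4 endothelial genes above background on all 5 arrays other than ALDH-negative pool 2, as the 250 bases before the RefSeq start (GRCm38.p6). Kdr lies at chr5:75978456-75978705 on the minus strand and Eng at chr2:32646345-32646594 on the plus strand. Capitals mark AGGAAG or its reverse complement CTTCCT, a form of the core that ETS factors such as Erg bind.
Kdr: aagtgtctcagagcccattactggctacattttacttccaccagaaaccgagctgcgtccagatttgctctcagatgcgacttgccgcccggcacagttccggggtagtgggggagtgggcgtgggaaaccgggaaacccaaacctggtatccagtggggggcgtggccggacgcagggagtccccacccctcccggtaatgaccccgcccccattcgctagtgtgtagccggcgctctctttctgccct
Eng: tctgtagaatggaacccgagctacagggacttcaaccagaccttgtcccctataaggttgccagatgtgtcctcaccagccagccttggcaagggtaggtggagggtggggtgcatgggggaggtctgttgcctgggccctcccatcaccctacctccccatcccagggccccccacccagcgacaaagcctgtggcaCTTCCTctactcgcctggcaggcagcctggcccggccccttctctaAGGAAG
The string was absent from the Kdr window, although the shorter GGAAG stands there as its reverse complement CTTCC. In the Eng window AGGAAG or its reverse complement stood at 2 places, its first base 52 and 6 bases before the start. It was found, on either strand, in 29.5% of all 32851 promoter windows of this length. Of the 29 windows of marker genes, 18 held it. By gene, 16 of the 23 marker genes with a promoter held it in at least 1 window (7 of 10 endothelial and 9 of 13 leukocyte genes). It was chosen from 5 overlapping strings around GGAAG, found in 6.91% to 64.1% of all windows, after their matches were seen. A match describes the sequence only.

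**Figure D2:**
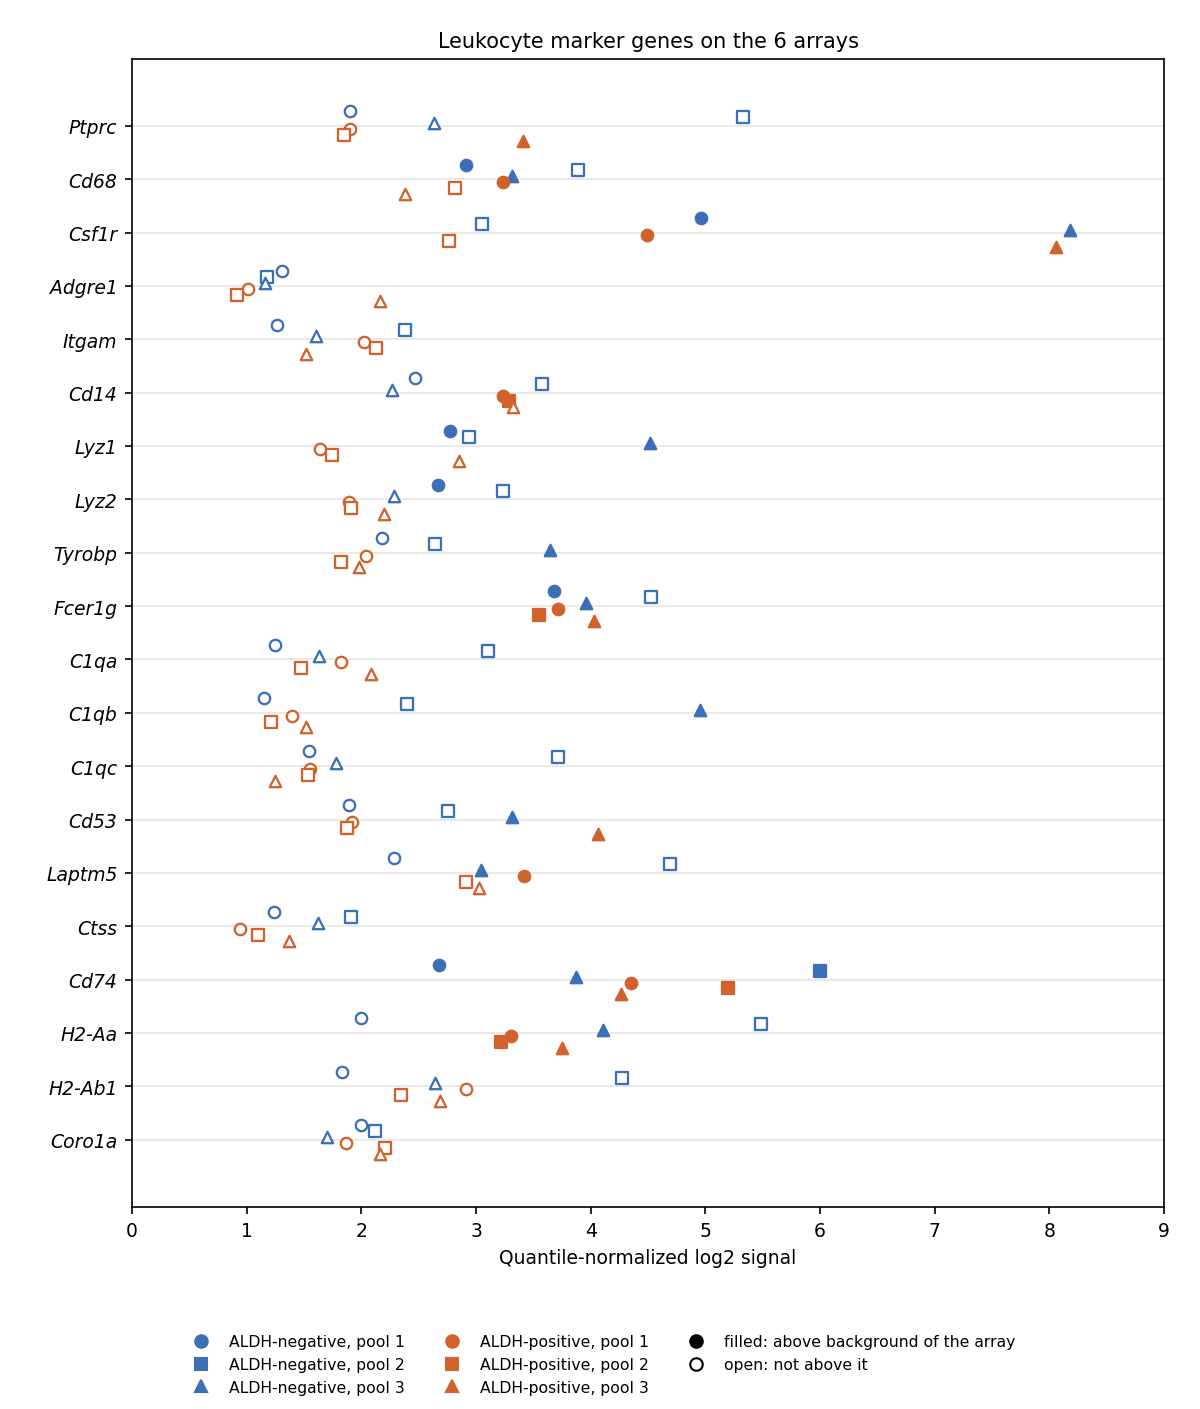
Quantile-normalized log2 signal (horizontal axis) of the 20 leukocyte marker genes on the 6 arrays, with colour for the ALDH fraction, shape for the pool, and filled symbols for readings above the background of their own array. Csf1r lies at 8.18 and 8.06 in the fractions of pool 3, and C1qb stands alone at 4.95 on ALDH-negative pool 3.

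Among the pan-leukocyte genes, Ptprc, which encodes CD45, read 1.90, 5.33 and 2.64 in the ALDH-negative fraction and 1.90, 1.85 and 3.41 in the ALDH-positive one. It passed background on ALDH-positive pool 3 alone, by 0.022, and its other probe set read 0.39 to 1.33. Cd53, a leukocyte tetraspanin, was above background in the fractions of pool 3 (3.31 and 4.06) and at 1.87 to 2.76 elsewhere. Its other probe set read 0.48 to 0.92 and was above background on no array. Laptm5, a lysosomal protein of blood cells, read 2.28, 4.69 and 3.05 against 3.42, 2.91 and 3.02 and was above background on 2 arrays. Of its other probe sets, 1 was above background on 1 array and the rest on none. Coro1a, an actin regulator of leukocytes, read 1.70 to 2.21 throughout. The defining leukocyte gene was thus at or below background in 5 of 6 samples.

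Csf1r, the receptor that macrophages need to survive, varied more between pools than between fractions in its probe set of highest mean. It read 4.96, 3.05 and 8.18 in the ALDH-negative fraction and 4.49, 2.76 and 8.06 in the ALDH-positive one. The pool differences were -0.47, -0.29 and -0.12 (mean -0.29, SD 0.17, limma SE 0.63, limma adjusted p = 0.926). Its other probe sets differed between the fractions of pool 2 by -1.79 and -2.70, and they did not show the height of pool 3. They read 3.85 and 3.23 on ALDH-negative pool 3 and 4.25 and 3.33 on ALDH-positive pool 3, so that the high reading of pool 3 rested on 1 of 3 probe sets. The low Gapdh 5' readings of pool 3 moved with this pattern, and their part in it was not tested. Adgre1, an adhesion receptor of mature macrophages, read 0.91 to 2.17 and the integrin subunit Itgam 1.27 to 2.38, below background on every array. Cd68, a lysosomal glycoprotein of macrophages, read 2.92, 3.89 and 3.31 in the ALDH-negative fraction and 3.23, 2.82 and 2.38 in the ALDH-positive one, above background on ALDH-negative pools 1 and 3 and ALDH-positive pool 1. Cd14, a coreceptor for bacterial lipopolysaccharide, read 2.47, 3.58 and 2.27 against 3.24, 3.29 and 3.32, above background in ALDH-positive pools 1 and 2.

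A few secreted and adaptor genes of macrophages were highest in ALDH-negative cells of pool 3. C1qb, the B chain of C1q, read 1.15, 2.40 and 4.95 in the ALDH-negative fraction and 1.39, 1.22 and 1.52 in the ALDH-positive one. Its other probe sets read 1.68 and 2.43 on ALDH-negative pool 3, below background, and the genes of the partner chains C1qa and C1qc read 1.63 and 1.78 there. Tyrobp, an adaptor of activating receptors, read 2.18, 2.65 and 3.64 in the ALDH-negative fraction and 2.04, 1.82 and 1.98 in the ALDH-positive one. Fcer1g, the common gamma chain of Fc receptors, was in contrast above background on all 5 arrays other than ALDH-negative pool 2, at 3.68, 4.53 and 3.96 against 3.71, 3.55 and 4.03. The protease Ctss read 0.94 to 1.91. Of the 20 leukocyte genes, 8 had their highest reading of the 5 arrays on ALDH-negative pool 3 and 6 on ALDH-positive pool 3, against 25.9% and 32.9% of all genes. These are the arrays with the lowest Gapdh 5' readings, whose part in this count was not tested. Tyrobp and C1qb were above background on ALDH-negative pool 3 alone of the 5, against 1.21% of all genes.

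Lyz1, a lysozyme gene, read 2.77, 2.94 and 4.52 in the ALDH-negative fraction and 1.64, 1.74 and 2.85 in the ALDH-positive one, lower in ALDH-positive cells of each pool by 1.13, 1.20 and 1.67 log2. The readings of the groups overlapped through ALDH-positive pool 3. The mean difference was -1.33. None of its ALDH-positive readings was above background, so no fold is given. Its mean over the 6 arrays (2.74) passed the filter on dim probe sets (2.73) only through the ALDH-negative readings (mean 3.41, against 2.08), and it did not pass with values as deposited or median-centred, so its test is not used as support. Of its other probe sets, 1 gave -0.65, -1.07 and -0.59 and the other 0.01, -1.33 and 0.28. Lyz2, the lysozyme of myeloid cells, read 2.67, 3.24 and 2.28 against 1.89, 1.91 and 2.20. It was above background on ALDH-negative pool 1 alone, by 0.084. Lyz1 and Lyz2 are neighbouring near-copies, and how far a probe set of one gene also reads the other was not tested. Their promoters are shown as the 250 bases before the RefSeq start (GRCm38.p6), to show how alike the copies are. Lyz1 lies at chr10:117292869-117293118 and Lyz2 at chr10:117282273-117282522, both on the minus strand, and capitals again mark AGGAAG or CTTCCT.
Lyz1: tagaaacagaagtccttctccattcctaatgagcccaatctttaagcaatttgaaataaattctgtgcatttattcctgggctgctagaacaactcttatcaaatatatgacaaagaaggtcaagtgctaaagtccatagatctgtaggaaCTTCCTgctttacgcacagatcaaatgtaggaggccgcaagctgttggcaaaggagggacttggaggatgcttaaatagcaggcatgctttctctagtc
Lyz2: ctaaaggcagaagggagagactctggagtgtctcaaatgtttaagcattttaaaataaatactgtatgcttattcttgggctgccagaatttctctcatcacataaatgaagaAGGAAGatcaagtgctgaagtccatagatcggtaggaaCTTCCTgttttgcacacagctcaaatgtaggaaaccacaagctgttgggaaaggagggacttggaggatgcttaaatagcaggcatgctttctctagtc
The windows were identical at 200 of 252 positions of a global alignment (79.4%). Both held the string with its first base 99 bases before the start, and Lyz2 held it again at 137.

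Of the class II genes in the set, only Cd74 was above background in both fractions of pool 1, where ALDH-positive cells read higher. H2-Aa and H2-Ab1 had the same order there, with H2-Aa below background in the ALDH-negative fraction and H2-Ab1 in both. Cd74, the invariant chain, read 2.68, 6.001 and 3.88 in the ALDH-negative fraction and 4.35, 5.20 and 4.27 in the ALDH-positive one. It was above background on all 6 arrays, but on ALDH-negative pool 1 by only 0.094. Its pool differences were 1.68, -0.80 and 0.39 (mean 0.42, SE 0.73). H2-Aa, the alpha chain, read 2.00, 5.48 and 4.11 against 3.31, 3.22 and 3.75. Its other probe sets were at or below 3.21 on all arrays and above background on none. H2-Ab1, the beta chain, read 1.83, 4.27 and 2.64 against 2.91, 2.35 and 2.68, below background throughout. Without pool 2 the mean differences of Cd74, H2-Aa and H2-Ab1 were 1.03, 0.47 and 0.56.

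The fractions were then compared over the 3 pools. The filter on dim probe sets removed 16 of the 36 genes and left 10 endothelial and 10 leukocyte genes for the test. Of these 20, 5 (Flt1, Cldn5, Ptprc, Lyz1 and H2-Ab1) passed the filter only through their ALDH-negative mean. None passed at an adjusted p of 0.05 in limma, in either direction, and the smallest adjusted p was 0.895. Over all 27022 probe sets tested the share called was 0% in each direction. At an unadjusted p under 0.05, 0 marker genes passed in either direction, against 2.04% of all probe sets higher and 0.403% lower in ALDH-positive cells. Without pool 2, Esam passed higher at that unadjusted level, 1 of 20 tested genes, against 2.29% of all probe sets. Lyz1 passed lower, 1 of 20 against 2.27%. It was in the test only through its ALDH-negative mean, so its pass is not used as support. In that fit without pool 2 the smallest adjusted p of a marker gene in limma was 0.909. With array weights, an alternative that lets limma count less consistent arrays for less, Esam (1.42, adjusted p = 0.0195) and Lyz1 (-1.54, adjusted p = 0.0126) passed, among 2953 probe sets, Lyz1 with the limit given above. Over the alternatives that tested the gene, the adjusted p ranged from 0.0195 to 1 for Esam and 0.0126 to 1 for Lyz1. The 95% intervals of the tested genes were wide, from -0.25 to 3.13 for Kdr, -2.67 to 0.35 for Eng and -1.77 to 1.19 for Csf1r. The absence of calls therefore does not show that the fractions held equal amounts of these transcripts. With 3 pairs, the smallest exact two-sided p of a single gene would be 0.25.

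**Figure D3:**
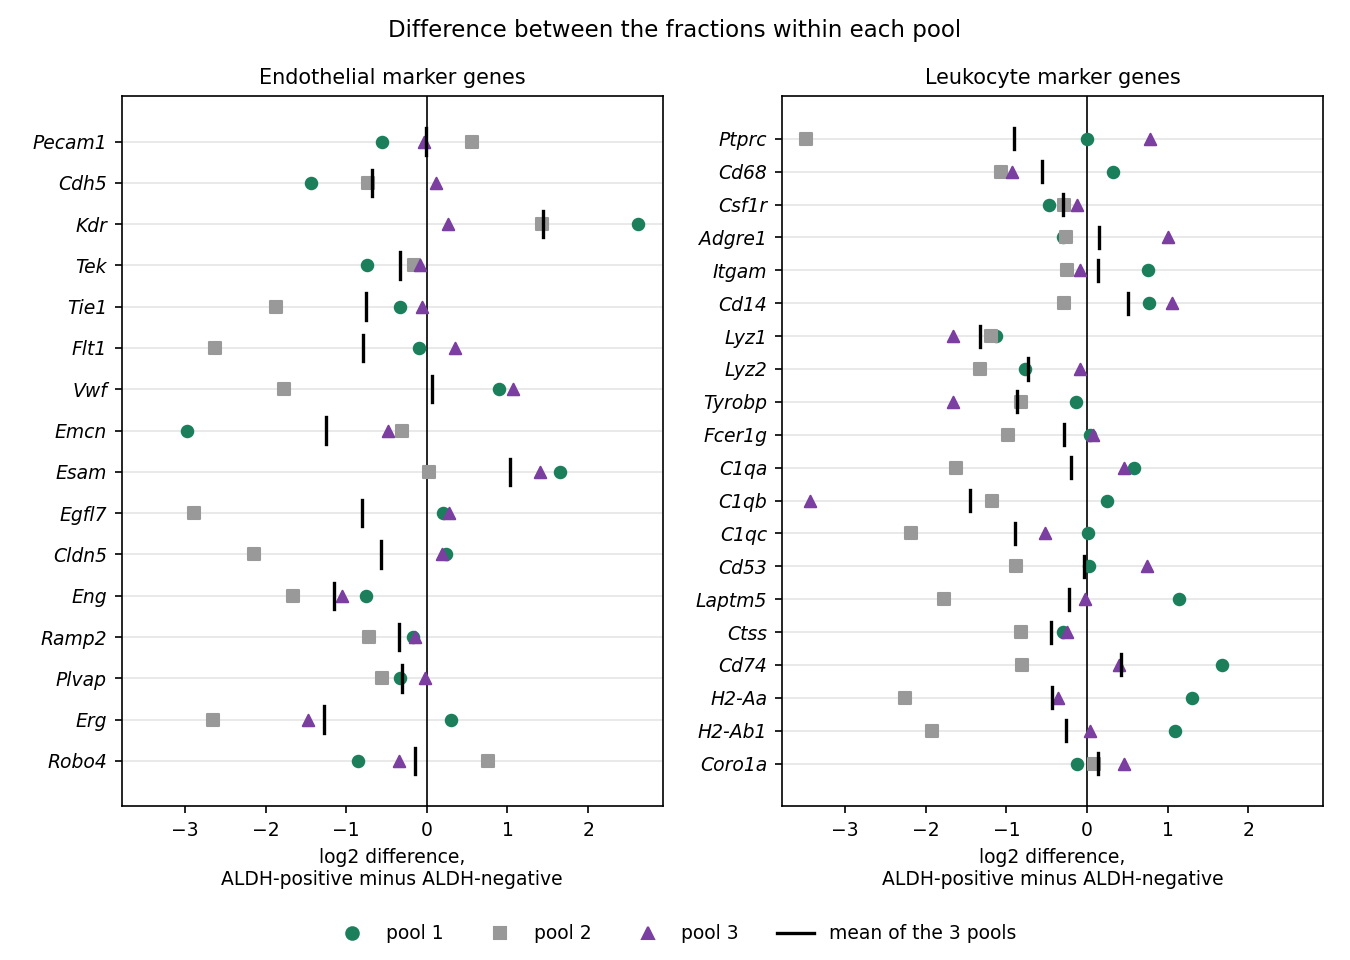
Difference in log2 signal between ALDH-positive and ALDH-negative cells within each pool (symbols) and its mean over the 3 pools (black bar) for the 36 genes. Pool 2 (grey squares) lies below 0 for 31 of the 36 genes, while the medians of pools 1 and 3 over all 36 genes are 0.0043 and -0.03.

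Over all 16 endothelial genes, dim ones included, the median difference was -0.46, with -0.25, -0.72 and -0.03 in pools 1, 2 and 3. For all genes the median was -0.09, with 0.02, -0.32 and 0.06. For the 20 leukocyte genes the median was -0.29, and the pools gave 0.03, -1.03 and -0.05. Without pool 2 the medians were -0.19 for endothelial genes, 0.25 for leukocyte genes and 0.05 for all genes. In pool 2, 12 of 16 endothelial and 19 of 20 leukocyte genes read lower in ALDH-positive cells, against 58.5% of all genes, and the ALDH-negative array of that pool had the highest reading of the 6 for 8 and 13 of them, against 44.2% of all genes. Its raised readings of dim genes moved with this result, and their part in it was not tested.

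Agreement between pools was limited. In all 3 pools, 2 endothelial genes (Kdr and Esam) read higher in ALDH-positive cells, against 10.2% of all genes. Another 6 endothelial genes (Tek, Tie1, Emcn, Eng, Ramp2 and Plvap) and 5 leukocyte genes (Csf1r, Lyz1, Lyz2, Tyrobp and Ctss) read lower in all 3, against 11.8% of all genes. Of these 11, Tek, Tie1, Plvap and Ctss were below background on every array, so their order is one of readings at background. Emcn, Lyz1, Lyz2 and Tyrobp were above it on no ALDH-positive array, and the other probe set of Eng gave 0.03 in pool 3. Without overlap between the groups, Esam was higher, against 3.42% of all genes, and Emcn, Eng, Ramp2, Lyz2 and Tyrobp were lower, against 3.81% of all genes. All these counts take in the ALDH-negative array of pool 2, which stood apart. In that pool 31 of the 36 genes read lower in ALDH-positive cells, against 58.5% of all genes. The counts were not made without that array, and its part in them was not tested.

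**Figure D4:**
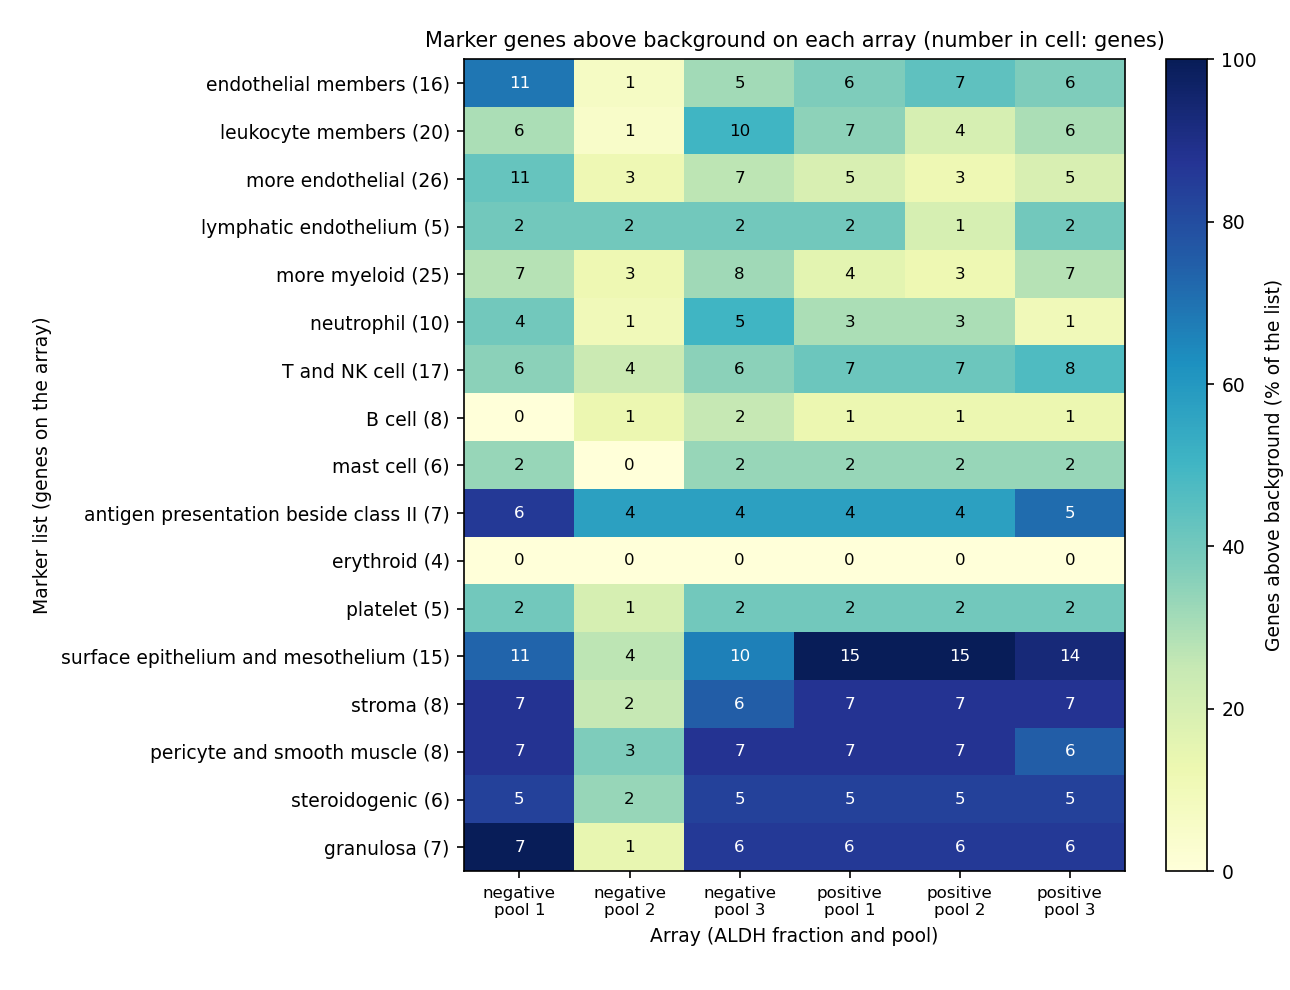
Number (in each cell) and percent (colour) of the genes of each marker list that lay above the background of each array; the number in brackets after a list's name is how many of its genes are on the array. Surface epithelium genes reach 15 of 15 on ALDH-positive pools 1 and 2, while erythroid genes are at 0 on all 6 arrays.

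Further markers of the same lineages were then read. Of 26 more endothelial genes on the array, 11, 3 and 7 lay above background on the ALDH-negative arrays of pools 1, 2 and 3 and 5, 3 and 5 on the ALDH-positive ones, and 13 were tested with 0 called in limma. Vcam1, an adhesion molecule that stromal and mesothelial cells also carry, was above background throughout, at 3.85, 6.31 and 4.52 in the ALDH-negative fraction and 4.05, 3.89 and 4.15 in the ALDH-positive one. Arhgef15, Ptprb and Fabp4, the next genes of the list by mean, were above background on 3 of the 5 arrays other than ALDH-negative pool 2. In all, 13 of the 26 were above it on none of those 5, against 4 of the 16 endothelial genes described first and 27.6% of all genes. Of 5 lymphatic endothelial genes, 3 were above background on none of the 5 arrays, Lyve1 and Mmrn1 among them. Flt4, a receptor for lymphatic growth factors of the VEGF family, was above it on all arrays but ALDH-positive pool 2, at 3.04, 6.35 and 4.78 against 4.07, 2.81 and 3.62. Pdpn, a mucin-like protein that mesothelium shares with lymphatic vessels, was bright, at 6.18, 6.68 and 6.09 against 8.68, 8.22 and 8.73. It was higher in ALDH-positive cells of each pool (mean 2.22, SE 0.66, limma unadjusted p = 0.0106, adjusted p = 0.895).

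Of 25 more myeloid genes, 7, 3 and 8 were above background on the ALDH-negative arrays and 4, 3 and 7 on the ALDH-positive ones, with 8 tested and 0 called. The Fc receptor gene Fcgr3 read 4.07, 6.09 and 4.51 against 4.11, 3.38 and 5.83, above background throughout. The scavenger receptor gene Msr1 was also above it on all 6 arrays, at 3.15, 5.88 and 3.99 against 3.45, 3.39 and 3.75. Cx3cr1, the fractalkine receptor of monocytes and macrophages, was above it on all but ALDH-negative pool 2, at 5.40, 4.37 and 3.59 against 4.64, 3.61 and 3.86. Cd84, an adhesion receptor of blood cells, was above it on 5 arrays. Of the 25, 14 were above it on none of the 5 arrays other than ALDH-negative pool 2, against 27.6% of all genes. The inhibitory Fc receptor gene Fcgr2b passed background on ALDH-negative pool 3 alone, at 4.04. Between 1 and 5 of 10 neutrophil genes, 4 to 8 of 17 T and NK cell genes, 0 to 2 of 8 B cell genes, 0 to 2 of 6 mast cell genes and 1 to 2 of 5 platelet genes were above background per array. For all genes the share per array was 25.3% to 67.3%. Erythroid genes reached background on no array, with 0 of 4. The T cell receptor component Cd3e was above background on all 6 arrays at 2.88, 7.72 and 3.75 in the ALDH-negative fraction and 3.67, 3.28 and 3.58 in the ALDH-positive one. The perforin gene Prf1, the T cell kinase gene Zap70 and the platelet gene Gp9 were likewise above it on all 6, and the B cell receptor gene Cd79a on 5. The partner of Cd3e, Cd3d, read 2.45, 5.95 and 3.34 against 2.03, 2.39 and 3.54.

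Markers of other ovarian cells were above background more often in the same samples. Between 6 and 7 of 8 stroma genes, 6 and 7 of 8 pericyte and smooth muscle genes, 5 of 6 steroidogenic genes and 6 to 7 of 7 granulosa genes passed it on the 5 arrays other than ALDH-negative pool 2. On those arrays 58.8% to 67.3% of all genes passed it. The smooth muscle actin gene Acta2, which many cultured epithelial and stromal cells also transcribe, read 6.19, 4.78 and 7.23 against 9.59, 9.29 and 10.09, and Tagln, an actin-binding partner, 5.38, 5.73 and 4.58 against 9.12, 8.63 and 6.75. Neither passed the test (limma adjusted p = 0.895 for each), although the groups did not overlap. Pdgfrb and Myh11 of the same list had lower ALDH-positive means. Pdgfrb read 3.77, 7.41 and 5.24 against 4.41, 4.56 and 5.00, and Myh11 2.25, 7.12 and 5.30 against 3.73, 3.82 and 3.97. The median difference of the 8 pericyte and smooth muscle genes was -0.43, and 0.41 without pool 2. Summed on the linear scale, the 16 endothelial genes gave 185, 426 and 165 on the ALDH-negative arrays of pools 1, 2 and 3 and 218, 178 and 163 on the ALDH-positive ones, the 426 on the array where 1 of them passed background. The 20 leukocyte genes gave 120, 325 and 472.5 against 142, 133 and 412, and without Csf1r 88.6, 317 and 182 against 120, 126 and 146. Of the class I genes, which nearly all nucleated cells transcribe, B2m was bright on every array, at 8.80, 7.31 and 8.21 against 8.81, 8.86 and 9.04. H2-K1 and H2-D1 were above background on all 6 arrays but varied more. H2-K1 read 9.18, 6.70 and 6.46 against 9.37, 9.47 and 7.41, and H2-D1 8.53, 8.13 and 6.29 against 8.36, 8.41 and 5.26.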

How the data were processed

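The authors deposited 1 log2 value per probe set and array; the scale was taken from its range (0.035 to 13.06), as no header states it. Per the series design the software was GeneSifter, with a paired analysis of pools; the summarisation and normalization steps behind it are not stated. Per the labels' protocols cDNA was amplified (Ovation Pico WTA) from sorted cells, which can lose dim transcripts unevenly. Array medians differed by 0.46, so 64 control probe sets were removed and arrays quantile normalized, which raises or lowers an array with another distribution. Of 45037 probe sets, 34945 had 1 gene symbol in GEO's platform annotation, 932 several and 9160 none; only the first kind was used. All 36 symbols matched the RefSeq table of GRCm38.p6 by identifier. The 36 genes had 64 probe sets, 14 of the genes more than 1.

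Calls above background compare probe sets within an array and so do not depend on normalization between arrays. Probe sets differ in brightness per transcript. Picking genes of a list by highest mean, and summing signals over genes, therefore favours bright probe sets and does not rank amounts of transcript. The fit used lmFit and eBayes of limma 3.58.1 (R 4.3.3), two-sided and with the pool as a block, after removal of the lower 40% of probe sets by mean (log2 2.73). Benjamini-Hochberg adjustment was over all 27022 probe sets. SEs and intervals are limma's. The number of arrays limits the precision. For each gene, limma draws the spread between pools toward a value shared by all probe sets tested. SEs, intervals and p-values therefore do not measure the spread of that gene's own pools alone. For Csf1r the SD of the pool differences was 0.17, with an SE of 0.63. The pool block comes from the paired analysis in the series design; deviations from group means of arrays from 1 pool correlated at 0.38, -0.19 and 0.35. The fit was tested on simulated data. It recovered planted changes at a small spread between pools and none at the spread of these arrays, so a lack of calls carries little weight. Named genes are all 36 members, and, from 15 further lists, genes among the 4 of highest mean and 2 of smallest unadjusted p, not all of which are named. Members and lists were chosen with earlier results of these data known. Alternatives were values as deposited, median centring, other filters, no block, each pool left out, array weights, the mean over probe sets and other background levels; the fit without the ALDH-negative array of pool 2 was added after seeing the data. No protein sequences were used here.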

Additional observations from a re-analysis of the deposited data

How the results depend on the processing

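No marker gene passed in limma under any alternative except array weights. With these, limma called 2 (Esam at 1.42, adjusted p = 0.0195, and Lyz1 at -1.54, adjusted p = 0.0126) and 2953 probe sets in all. The cause was not tested. Lyz1 was in the test only through its ALDH-negative mean, so its call is not used as support. With no replicate block the pairing was dropped and 0 marker genes and 0 probe sets passed, as with it (smallest adjusted p of a marker gene 0.914); it changed no other call. With each pool left out, 0 marker genes and 0 to 7 probe sets passed, the 7 without pool 1. The endothelial median ranged from -0.70 to -0.19 and the leukocyte median from -0.65 to 0.25 over pools left out, the last without pool 2; with values as deposited, median centring or the mean over probe sets they were -0.49 to -0.32 and -0.34 to -0.17. Leaving out that pool's ALDH-negative array and the block, an alternative chosen after seeing the data, they were -0.21 and 0.06. Readings above background, 70 of 216, were 28 at the 99th percentile of the receptor probe sets, 110 at the 40% level and 56 with the mean over probe sets. At the 40% level 11 endothelial and 15 leukocyte genes passed on ALDH-negative pool 2, against 1 and 1.

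Among tested genes the sign turned with array weights for Flt1 (0.19), Egfl7 (0.18), Cldn5 (0.14), Ptprc (0.51), Fcer1g (0.037), Laptm5 (0.17) and H2-Ab1 (0.21). It also turned for Laptm5 in median-centred arrays (0.041), and, with the ALDH-negative pool 2 array left out, for Egfl7 (0.094), Cldn5 (0.12), Ptprc (0.12), Laptm5 (0.45), H2-Aa (0.37) and H2-Ab1 (0.41); under that last setting the untested C1qa (0.36) and Cd53 (0.012) turned too. Adgre1, Itgam and Coro1a, untested and dim, turned with values as deposited (-0.011, -0.075 and -0.10). Over pools left out the differences of tested genes ranged from -0.29 to 0.27 for Pecam1, -1.36 to 0.13 for Flt1, -0.44 to 0.98 for Vwf, -1.35 to 0.24 for Egfl7, -0.98 to 0.21 for Cldn5, -1.74 to 0.39 for Ptprc, -0.47 to 0.053 for Fcer1g, -0.90 to 0.56 for Laptm5, -0.21 to 1.03 for Cd74, -1.31 to 0.47 for H2-Aa and -0.94 to 0.56 for H2-Ab1.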
